A study of Mus musculus with 11 samples.

Results

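The cornified envelope and late cornified envelope genes were followed in mouse back skin treated with imiquimod, as 33 genes chosen by symbol from the 38406 rows of the deposited table. All 33 had a row, and all 33 reached the mean of 10 normalized counts that was required for testing, as did 13215 genes in all. They fall into 14 genes of the Lce1 group, 6 of the Lce3 group and 13 other envelope genes (Lce6a, Lor, Ivl, Kprp, Crct1, Cnfn, Cdsn, Krtdap, Sbsn, Dmkn, Scel, Calm4 and Calml3). A normalized count is a read count divided by 1 size factor per library.

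The samples were the skin of 6 Trex2 knockout mice (replicates 7 to 12) and of 5 wild-type mice (replicates 2 to 6), all female C57BL/6, 8 to 10 weeks old. Every mouse of both genotypes had its back clipped and then received 125 mg of 5% imiquimod cream a day for 4 days, and skin was taken 24 hours after the last dose. Imiquimod is an agonist of the innate receptor TLR7 that produces a psoriasis-like dermatitis in mice, and Trex2 encodes a DNA exonuclease found mainly in keratinocytes. The knockout is the Trex2-/- line of an earlier study, and the kind of allele is not given in the sources used here. Whole skin was pulverized, so each library mixes epidermis, follicles, dermis, muscle and infiltrating cells, and fewer cells of a type and less RNA per cell cannot be told apart in it. No skin without the cream was analysed here, and each comparison is of genotypes after imiquimod. The submitters call the samples biological replicates, and no batch, litter or sequencing date is given.

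The cornified envelope is the insoluble protein shell that replaces the plasma membrane of a keratinocyte when it becomes a dead squame. Involucrin, envoplakin and periplakin are laid down first as a scaffold, transglutaminases then cross-link loricrin and small proline rich proteins onto it, and late envelope (LCE) proteins join in the outermost granular layer. Many of these genes, 25 of the 33 here, lie on mouse chromosome 3 in the epidermal differentiation complex. In human skin, genes of the LCE1 group belong to normal differentiation, whereas those of the LCE3 group are induced after injury and in psoriatic plaques, and a common deletion of LCE3 genes is associated with psoriasis. Psoriatic epidermis is also known for low loricrin and early involucrin.

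In the libraries, 32 of the 33 genes had a higher mean log2 level in knockout skin than in wild-type skin, where 51% of all tested genes had a positive log2 fold change. The median log2 fold change was 0.86 over the 14 Lce1 genes, 0.43 over the 6 Lce3 genes and 0.77 over the 13 other envelope genes, against 0.00808 over all tested genes. No member passed an adjusted p of 0.05 in limma, a threshold that 0.00757% of all tested genes passed as higher and 0.00757% as lower. At an unadjusted p under 0.05, 6 members were higher and 0 lower, where 12.9% of all tested genes were higher and 11.5% lower. These 6 were Ivl, Lor, Scel, Calml3, Sbsn and Dmkn, all among the other envelope genes, and no Lce gene was among them. Single libraries moved this count, to 13 without wild-type replicate 2 (11.1% of all genes), 19 without wild-type replicate 4 (16.2%) and 16 without knockout replicate 11 (13.4%). It was 4 without wild-type replicate 3 (9.68%) or 5 (11.1%). Without wild-type replicate 6 (9.83%) or knockout replicate 9 (11.3%) or 12 (8.22%) it was 5. It was 6 without knockout replicate 7 (13.3%), 8 (13.9%) or 10 (10.1%), the other 3 fits that left out 1 library. Knockout libraries were mostly deeper, and with log10 depth as a covariate 2 members were higher (1.78% of all genes) and 0 lower. With hair follicle markers as a covariate 3 members were higher (3.94%) and 2 lower (3.67%), and with basal keratinocyte markers 1 was higher (2.1%) and 1 lower (2.09%). DESeq2 on the recovered reads called 2 members higher, Ivl and Calml3 (2.21% of all tested genes), and 0 lower (2.15%), and edgeR called 0 (0.00757% of all tested genes were higher). A log2 fold change of at least 1 was found in 6 Lce1, 0 Lce3 and 4 other envelope genes, where 2.96% of all tested genes reached it. The 6 Lce1 genes became 2 without wild-type replicate 3, 3 without wild-type replicate 5 and 4 without knockout replicate 9 or 12. They became 8 without wild-type replicate 2 or knockout replicate 11, 9 without wild-type replicate 4, 1 by edgeR and 2 by DESeq2. Over these library sets 245 of 13218 genes (without knockout replicate 12) to 601 of 13204 (without wild-type replicate 4) reached it. Of all 13215 genes 306 did by edgeR and 315 by DESeq2. Without wild-type replicate 4 limma called 3 members higher, Lor, Ivl and Scel, and 3.5% of all genes. The difference between the medians of the 3 groups was not tested.

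The same few libraries stood at the extremes for most members. Of the 33 members, 28 had their highest knockout value in knockout replicate 9 and the other 5 (Lce1m, Ivl, Kprp, Cdsn and Scel) in knockout replicate 12, and replicate 9 was among the highest 2 of all 11 libraries for all 33. The lowest knockout value was in replicate 11 for 29 members. Among wild-type libraries the highest value was in replicate 4 for 21 members and in replicate 2 for 12, and the lowest of all 11 libraries was wild-type replicate 5 for 19. Without knockout replicates 9 and 12, 26 of 33 members had a positive log2 fold change and the medians were 0.21 for Lce1, 0.082 for Lce3 and 0.33 for the other envelope genes. In that fit 4 members were higher at an unadjusted p under 0.05 and Lce1g was lower, where 6.52% of all genes were higher and 6.02% lower.

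**Figure D1:**
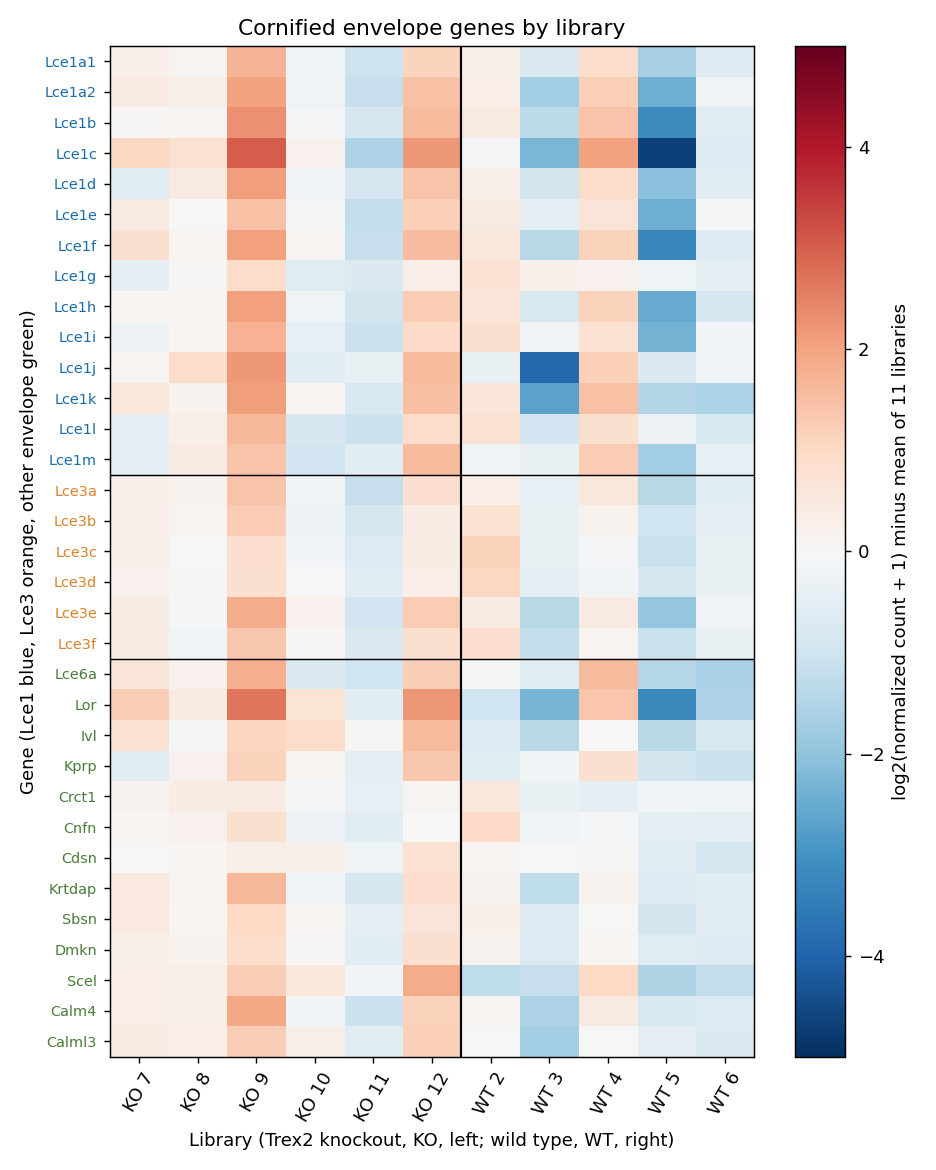
Level of each of the 33 envelope genes in each library, as log2(normalized count + 1) minus the gene's mean over the 11 libraries, with the 6 knockout libraries left of the line and the 5 wild-type libraries right of it. Knockout replicates 9 and 12 and wild-type replicate 4 are red for most Lce1 genes and Lor, wild-type replicate 5 is blue for most members, and wild-type replicate 2 is red for Cnfn, Lce3c and Lce3d.

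Markers of other layers and cells differed between the genotypes as well. Their counts stand against 12.9% of all tested genes higher and 11.5% lower at an unadjusted p under 0.05. All 8 basal keratinocyte markers (Krt5, Krt14, Krt15, Trp63, Itga6, Itgb4, Col17a1 and Lamb3) were tested and all 8 had a positive log2 fold change, 6 of them at an unadjusted p under 0.05. Their summed level was 59179 to 180552 in knockout skin and 37629 to 93567 in wild-type skin, highest in knockout replicate 9 and lowest in wild-type replicate 5. Of 16 hair follicle and shaft markers 7 were tested and all 7 were positive, 2 of them at an unadjusted p under 0.05, with a sum of 309.7 to 995 in knockout skin and 163 to 886 in wild-type skin over all 16 and Krt31 at 0 in every library. All 8 neutrophil markers were negative, each at an unadjusted p under 0.05, with a sum of 16155 to 83861 in knockout skin and 46532 to 114122 in wild-type skin. Of 7 macrophage markers 1 was positive and 4 were lower at an unadjusted p under 0.05, with a sum of 7315 to 12224 in knockout skin and 11227 to 17280.0 in wild-type skin. The other lists (sums in normalized counts) gave 43814 to 67839 in knockout skin and 48532 to 68903 in wild-type skin for 6 fibroblast markers, 23738 to 51597 in knockout skin and 34777 to 56739.9 in wild-type skin for 5 muscle markers and 5106 to 11301 in knockout skin and 6776 to 15109.6 in wild-type skin for 5 adipocyte markers. The 6 stress keratinocyte markers summed to 93154 to 212668 in knockout skin and 85166 to 158679.7 in wild-type skin. All 4 keratins among them (Krt6a, Krt6b, Krt16 and Krt17) had a positive log2 fold change, 3 of them higher at an unadjusted p under 0.05. The other 2 genes, S100a8 and S100a9, are also in the neutrophil list and were lower at an unadjusted p under 0.05. Sums of 4 sebaceous markers were 2095 to 9567 in knockout skin and 1458 to 4736 in wild-type skin, of 4 endothelial markers 876 to 2232 in knockout skin and 1430.0 to 2504 in wild-type skin and of 7 T cell markers 45.1 to 66.4 in knockout skin and 82.3 to 98.9 in wild-type skin. No fibroblast, endothelial, muscle or adipocyte marker had a positive log2 fold change. Of these, 1 muscle and 2 adipocyte markers were lower at an unadjusted p under 0.05 (11.5% of all tested genes). All 3 sebaceous markers tested and 1 of the 2 T cell markers tested were positive. The part of these cell types in the envelope results was not tested. With the basal markers as a covariate, which is itself higher in knockout skin, 9 of 33 members were positive and the medians were −0.54 for Lce1, −0.33 for Lce3 and 0.0301 for the others.

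Depth was 3125366 to 15557862 counted reads in knockout libraries and 1208896 to 5853454 in wild-type libraries. A limit of 3 reads per library equals 1.04 to 5.21 normalized counts in knockout and 2.72 to 13.5 in wild type, and that limit covers counting error only. Trex2 had 1.85 ± 0.909 normalized counts in knockout skin and 1479.6 ± 446 in wild-type skin (SD, n = 6 and 5) (limma adjusted p = 5.5e-11), and no library went against its label. Among the 363 values of the 33 members, 5 rested on at most 3 reads, all in wild type, and 4 of these were in replicate 3, the shallowest library.

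The region just before the start site was also compared among the members. Its part in their shared movement across libraries was not tested. RefSeq windows on GRCm38.p6 were matched by symbol for 29 of the 33 members, and the 250 bases before each start were searched on both strands for TGANTCA (the AP-1 motif), for the KLF type motif CACCC and for the TATA box TATAAA. The AP-1 letters read the same on both strands, and matches of different motifs were counted separately even where they overlap. Not matched were Lce1f, Kprp, Crct1 and Calml3. Windows of Lor, Ivl, Scel, Sbsn, Dmkn and Krtdap held the AP-1 letters, and those of the 13 Lce1 and 6 Lce3 genes and of Lce6a, Cnfn, Cdsn and Calm4 did not. Among 32851 windows of all genes 6.75% held them. The KLF type letters were in windows of 5 of 13 Lce1, 2 of 6 Lce3 and 8 of 10 other envelope genes (52.0% of all windows), and the TATA letters in windows of 2, 1 and 4 genes of these groups (12.4% of all windows). The windows of Ivl, Lor and Scel, which had the smallest p, and of Lce1c and Lce3c for comparison, are given 5′ to 3′ on the gene's strand with the AP-1 and TATA letters in capitals.

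Ivl, chr3:92573736-92573985, minus strand: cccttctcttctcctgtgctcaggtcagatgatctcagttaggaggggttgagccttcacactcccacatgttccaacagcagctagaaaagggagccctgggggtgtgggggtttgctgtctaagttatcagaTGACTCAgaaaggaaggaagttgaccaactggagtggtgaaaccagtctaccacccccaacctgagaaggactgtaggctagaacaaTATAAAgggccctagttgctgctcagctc
Lor, chr3:92083143-92083392, minus strand: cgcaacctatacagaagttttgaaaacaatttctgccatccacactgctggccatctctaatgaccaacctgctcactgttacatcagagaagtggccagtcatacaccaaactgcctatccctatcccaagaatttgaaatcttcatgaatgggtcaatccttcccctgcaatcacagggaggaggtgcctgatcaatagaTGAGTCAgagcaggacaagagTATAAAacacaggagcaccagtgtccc
Scel, chr14:103513091-103513340, plus strand: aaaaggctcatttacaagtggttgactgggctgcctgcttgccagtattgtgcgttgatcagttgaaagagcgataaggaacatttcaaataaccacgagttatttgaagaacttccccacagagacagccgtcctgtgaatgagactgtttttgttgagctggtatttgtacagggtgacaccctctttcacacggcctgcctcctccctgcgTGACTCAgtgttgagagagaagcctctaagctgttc
Lce1c, chr3:92678997-92679246, plus strand: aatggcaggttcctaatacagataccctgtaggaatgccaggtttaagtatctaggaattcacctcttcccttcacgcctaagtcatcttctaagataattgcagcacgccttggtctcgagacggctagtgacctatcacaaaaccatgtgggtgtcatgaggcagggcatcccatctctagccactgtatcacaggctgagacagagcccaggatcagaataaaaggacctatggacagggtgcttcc
Lce3c, chr3:92944236-92944485, plus strand: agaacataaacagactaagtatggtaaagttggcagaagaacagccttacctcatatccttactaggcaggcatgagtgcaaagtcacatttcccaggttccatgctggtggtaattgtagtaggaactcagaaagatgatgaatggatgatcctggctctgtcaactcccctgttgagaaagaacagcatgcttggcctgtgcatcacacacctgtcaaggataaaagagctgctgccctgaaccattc

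The first base of the AP-1 letters lay 116 bases before the start in Ivl, 48 in Lor and 36 in Scel, and the TATA letters began 29 bases before the start in Ivl and 27 in Lor. The printed windows of Lce1c and Lce3c hold neither. Of the 6 members with the AP-1 letters 5 were higher at an unadjusted p under 0.05, and of the 23 without them 0 were, a comparison made after the values were seen. Over all tested genes with a window the shares were close, with 14.9% of 619 genes that hold the letters and 12.9% of 9103 genes that do not. A match of letters is a description and shows no binding.

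Involucrin (Ivl, chr3:92570902-92573735 on GRCm38), the scaffold protein laid down first, was the member of smallest p. Its normalized counts in knockout replicates 7 to 12 were 675, 384, 854, 764, 422 and 1236, against 263, 153, 401, 153 and 231 in wild-type replicates 2 to 6. Of the knockout libraries 5 lay above every wild-type library, and replicate 8 lay just below wild-type replicate 4. Ivl averaged 722 ± 313 normalized counts in knockout skin and 240.4 ± 102 in wild-type skin (SD, n = 6 and 5). Its log2 fold change stood at 1.57 (SE 0.31, adjusted p = 0.108 by limma), with an unadjusted 95% interval of 0.89 to 2.24, and the exact two-sided permutation test gave p = 0.00866. DESeq2 gave it an adjusted p of 0.00253 and edgeR one of 0.13. Leaving out each library in turn moved its log2 fold change between 1.39 and 1.77, and it passed in limma without wild-type replicate 4 (adjusted p = 0.0332). Without knockout replicates 9 and 12 its log2 fold change was 1.25 (limma adjusted p = 0.352).

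Loricrin (Lor, chr3:92080271-92083142), the major protein of the mature envelope, had a larger log2 fold change and a larger spread. It had 387, 217, 1035, 264, 113 and 743 normalized counts in knockout replicates 7 to 12, against 81.7, 31.6, 425, 16.3 and 54.9 in wild-type replicates 2 to 6. Wild-type replicate 4 lay above 4 of the 6 knockout libraries, while the other 4 wild-type libraries were lower than all 6. Its log2 fold change stood at 2.46 (SE 0.72, adjusted p = 0.108 by limma), with an interval of 0.91 to 4.00 and an exact permutation p of 0.026. On recovered reads it was lower, 1.83 by edgeR (adjusted p = 0.176) and 1.90 by DESeq2 (adjusted p = 0.14). The median was 325 in knockout skin and 54.9 in wild-type skin. Without wild-type replicate 4 the log2 fold change was 3.14 (limma adjusted p = 0.0332), and without knockout replicates 9 and 12 it was 1.80 (limma adjusted p = 0.37). The ratio of Lor to Ivl normalized counts was 0.573, 0.565, 1.21, 0.346, 0.267 and 0.601 in knockout replicates 7 to 12 and 0.31, 0.206, 1.06, 0.107 and 0.238 in wild-type replicates 2 to 6. The highest ratios were in knockout replicate 9 and wild-type replicate 4, and the genotypes overlapped.

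Sciellin (Scel, chr14:103513342-103612797), a precursor that is cross-linked into the envelope, gave 177, 170.5, 325, 204, 126 and 513 normalized counts in knockout replicates 7 to 12 and 58.1, 63.2, 284, 48.1 and 59.6 in wild-type replicates 2 to 6. As for Lor, replicate 4 lay among the knockout values and the other 4 wild-type libraries lay lower than any of them. The log2 fold change stood at 1.50 (SE 0.44, adjusted p = 0.108 by limma), with an exact permutation p of 0.026. Without wild-type replicate 4 it was 1.96 (limma adjusted p = 0.0327). Kprp, the keratinocyte proline rich protein, had 331 at the lowest, 542 at the median and 1237 at the highest in knockout skin and 323, 433, 838, 256 and 229 in wild-type replicates 2 to 6, and the groups overlapped. The log2 fold change stood at 0.69 (SE 0.39, adjusted p = 0.285 by limma).

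**Figure D2:**
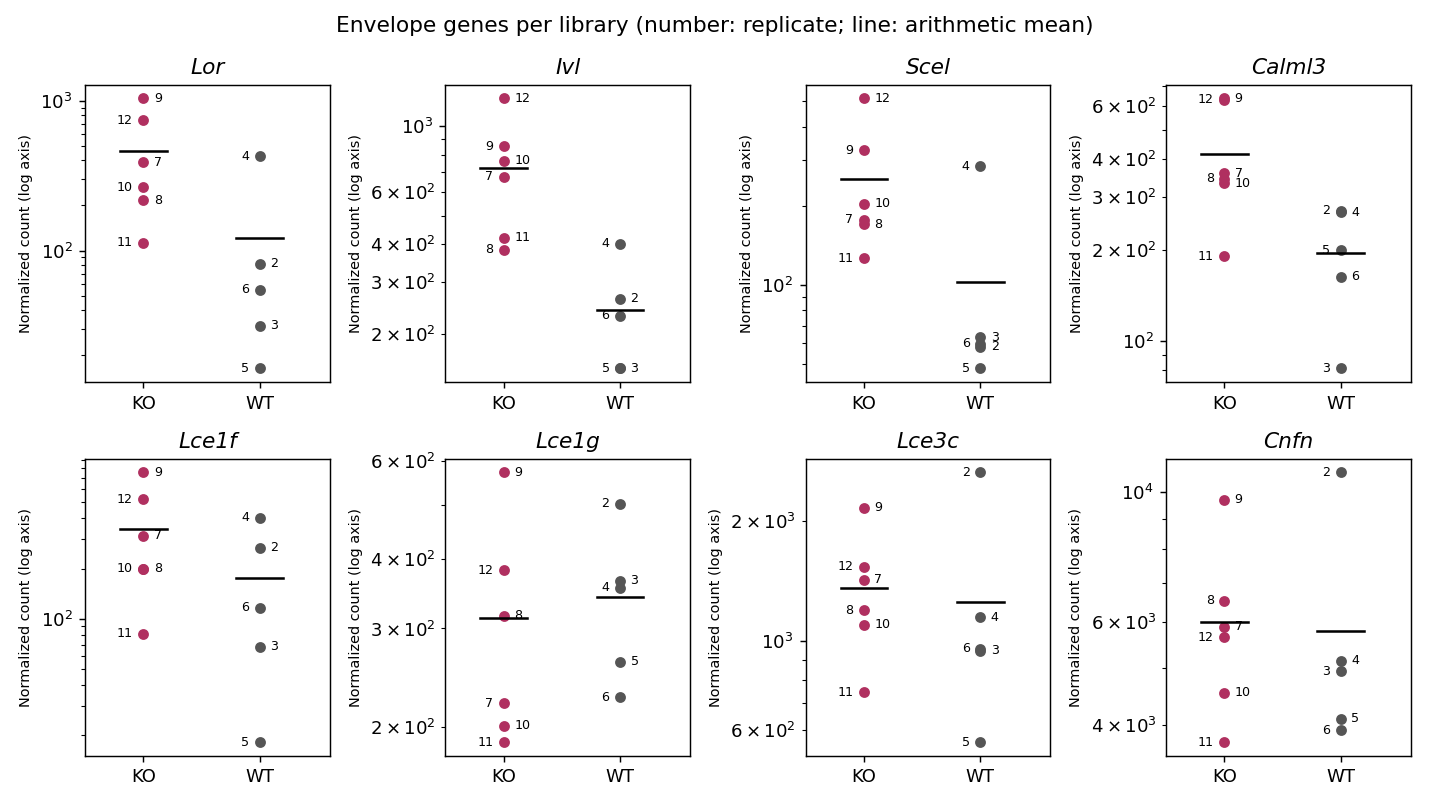
Normalized count (log axis) of 8 envelope genes in each library, numbered by replicate, with knockout left of wild type and a line at each arithmetic mean. In the Ivl panel 5 of 6 knockout points lie above all wild-type points, in the Lor and Scel panels wild-type replicate 4 lies among the knockout points, and in the Lce3c and Cnfn panels wild-type replicate 2 is the highest point.

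Calml3 and Calm4 encode calmodulin-like calcium-binding proteins of differentiating keratinocytes. Calml3 had 359, 344, 636, 333, 191 and 630.3 normalized counts in knockout replicates 7 to 12, against 270.4, 81.2, 267, 199.7 and 163 in wild-type replicates 2 to 6, and 5 knockout libraries lay above every wild-type library. Its log2 fold change stood at 1.08 (SE 0.34, adjusted p = 0.115 by limma), the exact permutation p was 0.0303, and DESeq2 gave an adjusted p of 0.041. Calm4 had 1263 at the lowest, 3279 at the median and 10237 at the highest in knockout skin and 2856, 907, 3643, 1530.4 and 1654 in wild-type replicates 2 to 6. Its values overlapped between genotypes, knockout replicate 9 stood far above all other libraries, and the log2 fold change stood at 0.91 (SE 0.47, adjusted p = 0.245 by limma).

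Dermokine (Dmkn), suprabasin (Sbsn) and Krtdap are neighbours on chromosome 7 and encode secreted proteins of the suprabasal layers. Dmkn had 11625, 10749, 17233, 9841, 6448 and 16516 normalized counts in knockout replicates 7 to 12, against 10798, 5934, 9996, 6171 and 6019 in wild-type replicates 2 to 6. Of the knockout libraries 3 lay above every wild-type library, and the log2 fold change stood at 0.61 (SE 0.27, adjusted p = 0.183 by limma), with an exact permutation p of 0.0519. Sbsn had 3491 at the lowest, 5816 at the median and 9312 at the highest in knockout skin and 5689, 3005, 4653, 2461 and 3232 in wild-type replicates 2 to 6, and 6.96% of its 50-base windows also occur in transcripts of Tmem147os. Its log2 fold change stood at 0.69 (SE 0.26, adjusted p = 0.149 by limma), with an exact permutation p of 0.0498. For Krtdap the values were 2387 at the lowest, 5532 at the median and 13818 at the highest in knockout skin and 4996, 1823, 4998, 2812 and 3035 in wild-type replicates 2 to 6, and 3 knockout libraries exceeded all 5 wild-type libraries. The log2 fold change stood at 0.77 (SE 0.39, adjusted p = 0.235 by limma). In all 3 genes knockout replicate 9 was the highest library and replicate 11 the lowest of the knockout group.

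The remaining members of this group had smaller estimates or low levels. Cornifelin (Cnfn), an envelope protein, had 5879, 6515, 9712, 4534, 3732 and 5645 normalized counts in knockout replicates 7 to 12, against 10818, 4937, 5144, 4089 and 3912 in wild-type replicates 2 to 6. Wild-type replicate 2 was the highest of all 11, the groups overlapped throughout, and the log2 fold change stood at 0.099 (SE 0.28, adjusted p = 0.845 by limma), with an interval of −0.50 to 0.70. Corneodesmosin (Cdsn), the adhesive protein of corneodesmosomes, had 3991 at the lowest, 5264 at the median and 7772 at the highest in knockout skin and 5143, 4716, 4895, 3192 and 2518 in wild-type skin, with a log2 fold change of 0.43 (SE 0.22). Crct1, a cysteine-rich gene between the Lce3 group and Lce1m, had a log2 fold change of 0.23 (SE 0.20) with an interval of −0.19 to 0.65. Lce6a, the single late envelope gene outside the other 2 groups, was low, with 10.2 at the lowest, 29.0 at the median and 78.6 at the highest in knockout skin and 20, 13.5, 66.7, 7.26 and 6.28 in wild-type skin, and had a log2 fold change of 0.79 (SE 0.61). The limma adjusted p of these 4 genes lay between 0.235 and 0.845.

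**Figure D3:**
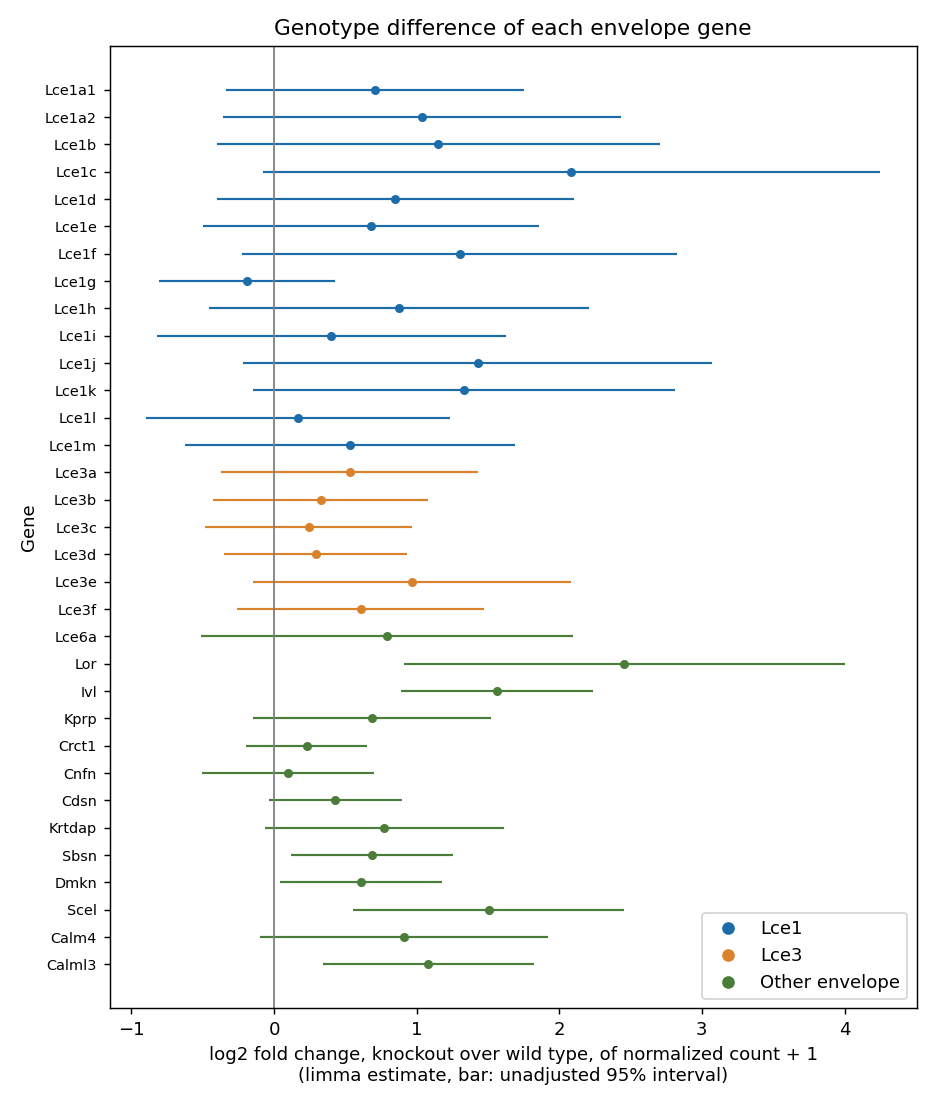
Log2 fold change (knockout over wild type, on the log2 scale of normalized count + 1) of each envelope gene, with its unadjusted 95% interval from limma. The interval lies above 0 for Ivl, Lor, Scel, Calml3, Sbsn and Dmkn and includes 0 for the 20 genes of the Lce1 and Lce3 groups.

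The Lce1 genes stand within 373 kb of chromosome 3 (chr3:92646535-93019060), all but Lce1l and Lce1m in an unbroken row before Kprp, and encode small cysteine-rich and glycine-rich proteins. Positions throughout are on GRCm38 from GENCODE M21. Of the 14, 13 had a positive log2 fold change, from 0.17 in Lce1l to 2.08 in Lce1c. The limma adjusted p ranged from 0.218 to 0.852 and the exact permutation p from 0.128 to 0.777. In all 14 the genotypes overlapped, where in 1.02% of all tested genes the 6 knockout libraries lay above every wild-type library.

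Lce1f, among the most abundant of the group, had 314, 199.6, 758, 200.0, 81.5 and 520.2 normalized counts in knockout replicates 7 to 12, against 267, 67.7, 405, 18.2 and 116 in wild-type replicates 2 to 6. Knockout replicates 9 and 12 lay above every wild-type library and the other 4 among them, and wild-type replicate 5 lay far below the rest. The log2 fold change stood at 1.30 (SE 0.71, adjusted p = 0.269 by limma), with an interval of −0.22 to 2.82. Lce1c, whose printed window holds neither the AP-1 nor the TATA letters, spread most, with 144, 119, 577, 81.2, 23.0 and 321 in knockout replicates 7 to 12 and 65.3, 13.5, 280.2, 1.82 and 43.9 in wild-type replicates 2 to 6. The value in wild-type replicate 5 was 2 reads, and the log2 fold change stood at 2.08 (SE 1.01, adjusted p = 0.218 by limma). Without wild-type replicate 5 the log2 fold change of Lce1c was 1.21, and on recovered reads of all libraries it was 1.27 by edgeR and 1.37 by DESeq2. Lce1a1 had 80.4 at the lowest, 191 at the median and 545 at the highest in knockout skin and 198, 99.3, 304, 52.6 and 105 in wild-type replicates 2 to 6, with the same libraries at the extremes, and the log2 fold change stood at 0.71 (SE 0.49, adjusted p = 0.373 by limma).

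In the low members Lce1k and Lce1j knockout replicates 9 and 12 were again the highest libraries. Lce1k had 19.8 at the lowest, 44.9 at the median and 150.0 at the highest normalized counts in knockout skin and 52.6, 4.51, 97.8, 11.8 and 11.0 in wild-type skin, and a log2 fold change of 1.33 (SE 0.69). Lce1j had 9.07 at the lowest, 21.3 at the median and 66.7 at the highest in knockout skin and 10.9, 0, 33.4, 8.17 and 12.6 in wild-type skin, and a log2 fold change of 1.43 (SE 0.77). By edgeR and DESeq2 the log2 fold changes were 0.76 and 0.85 for Lce1k and 0.96 and 1.04 for Lce1j, below those of limma. The 0 of Lce1j in wild-type replicate 3 allows up to 13.5 normalized counts at that depth. The remaining 8 genes (Lce1a2, Lce1b, Lce1d, Lce1e, Lce1h, Lce1i, Lce1l and Lce1m) had log2 fold changes of 0.17 to 1.15 and means of 71.1 to 234 normalized counts in knockout skin and 55.5 to 152 in wild-type skin.

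Lce1g was the exception in its group. It had 220.4, 316, 572, 201, 188 and 381 normalized counts in knockout replicates 7 to 12, against 503, 366, 355, 261 and 226 in wild-type replicates 2 to 6, and was the single member with a negative log2 fold change, −0.19 (SE 0.29) with an interval of −0.80 to 0.42 and a limma adjusted p of 0.697. Wild-type replicate 5, the lowest library for 10 of the 14 Lce1 genes, had more Lce1g than 3 knockout libraries. In wild-type skin its highest value was 2.22 times its lowest, against 3.45 to 154 times in the 12 other Lce1 genes detected in every library. Per length, Lce1g was the highest Lce1 gene in wild-type skin, and Lce1f in knockout skin. The SDs of their levels overlapped in both genotypes. Both genes were measured in the same libraries, and their order within libraries was not tested. In only the 7 libraries of 3000000 to 8000000 reads, a set chosen after values were seen, the sign of Lce1g turned to 0.0925.

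The 6 Lce3 genes lie together within 68.1 kb (chr3:92925287-92993426), next to Crct1. All 6 had a positive log2 fold change, from 0.24 to 0.97, with limma adjusted p of 0.261 to 0.672 and exact permutation p of 0.156 to 0.565. Lce3c, Lce3d and Lce3b were the abundant ones. Lce3c had 1426, 1195, 2158, 1099.5, 745 and 1536 normalized counts in knockout replicates 7 to 12, against 2648, 948, 1147, 559 and 959 in wild-type replicates 2 to 6. Wild-type replicate 2 exceeded every knockout library, and the log2 fold change stood at 0.24 (SE 0.34, adjusted p = 0.672 by limma), with an interval of −0.48 to 0.97. Lce3d had 745 at the lowest, 1213 at the median and 1905 at the highest in knockout skin and 2234, 803, 1002, 591 and 874 in wild-type replicates 2 to 6, with the same wild-type library highest, and had a log2 fold change of 0.29 (SE 0.30). Lce3b had 511 at the lowest, 1076 at the median and 2259 at the highest in knockout skin and 1597, 736, 1061, 475 and 667 in wild-type replicates 2 to 6, and had a log2 fold change of 0.33 (SE 0.35).

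The less abundant Lce3e, Lce3f and Lce3a had the larger estimates. Lce3e had 289.8, 207, 820.0, 257, 113 and 540.4 normalized counts in knockout replicates 7 to 12, against 290.4, 85.7, 306, 57.2 and 199 in wild-type replicates 2 to 6. Knockout replicates 9 and 12 lay above every wild-type library, and the log2 fold change stood at 0.97 (SE 0.52, adjusted p = 0.261 by limma). Lce3f had 178 at the lowest, 344 at the median and 745 at the highest in knockout skin and 532, 126, 325, 133 and 232 in wild-type replicates 2 to 6, and had a log2 fold change of 0.61 (SE 0.40). For Lce3a the values were 86.8 at the lowest, 231 at the median and 529 at the highest in knockout skin and 245, 149, 290.2, 74.4 and 133 in wild-type replicates 2 to 6, and the log2 fold change was 0.53 (SE 0.42). Neighbouring estimates differed by less than their SEs. These SEs do not measure differences between genes of the same libraries, and the order among the 6 was not tested.

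Paralogues of these groups share sequence. Of the 50-base windows of a gene's transcripts, 12.1% in Lce3b to 49.3% in Lce3d also occur in another gene for the Lce3 group, and 0% in Lce1m to 27.1% in Lce1i for the Lce1 group. Which gene shares most with a given member was not resolved, because the count per partner grew with its number of transcripts. Reads from such stretches fit more than 1 gene, how they were counted is not given in the sources used here, and the split of reads among close paralogues is therefore uncertain. Lce6a, Lor, Kprp, Crct1, Cnfn, Cdsn, Krtdap, Dmkn, Scel and Calml3 share 0% with any other gene. Ivl shares 0.482% and Calm4 4.72%.

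Summed over its members, the Lce1 group had 1699, 1704, 5295, 1266, 759.9 and 3512 normalized counts in knockout replicates 7 to 12, against 2105, 984, 2938, 518 and 1073 in wild-type replicates 2 to 6. The Lce3 group had 4756, 4035, 8415, 3703, 2378 and 5542 in knockout replicates 7 to 12, against 7546, 2847, 4131, 1889.8 and 3064 in wild-type replicates 2 to 6. Both sums overlapped between the genotypes. Lce1 made up 30.5 ± 6.6% of the normalized counts of both groups together in knockout skin and 27.3 ± 8.24% in wild-type skin (SD, n = 6 and 5). The share was at least 38.6% in knockout replicates 9 and 12 and in wild-type replicate 4, and between 21.5% and 29.7% in the other 8 libraries. Wild-type replicate 2 had an Lce3 sum exceeded only by that of knockout replicate 9 with a share of only 21.8%, and wild-type replicate 4, with a lower Lce3 sum, had 41.6%. The summed hair follicle markers stood at 995, 938 and 886 normalized counts in knockout replicates 9 and 12 and wild-type replicate 4, and at 163 to 446 in the other 8 libraries, and their part in the Lce1 share was not tested. Wild-type replicates 4 and 2 divided the other envelope genes. Replicate 4 was the highest wild-type library for Lce6a, Lor, Ivl, Kprp, Krtdap, Scel and Calm4, and replicate 2 for Crct1, Cnfn, Cdsn, Sbsn, Dmkn and Calml3.

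**Figure D4:**
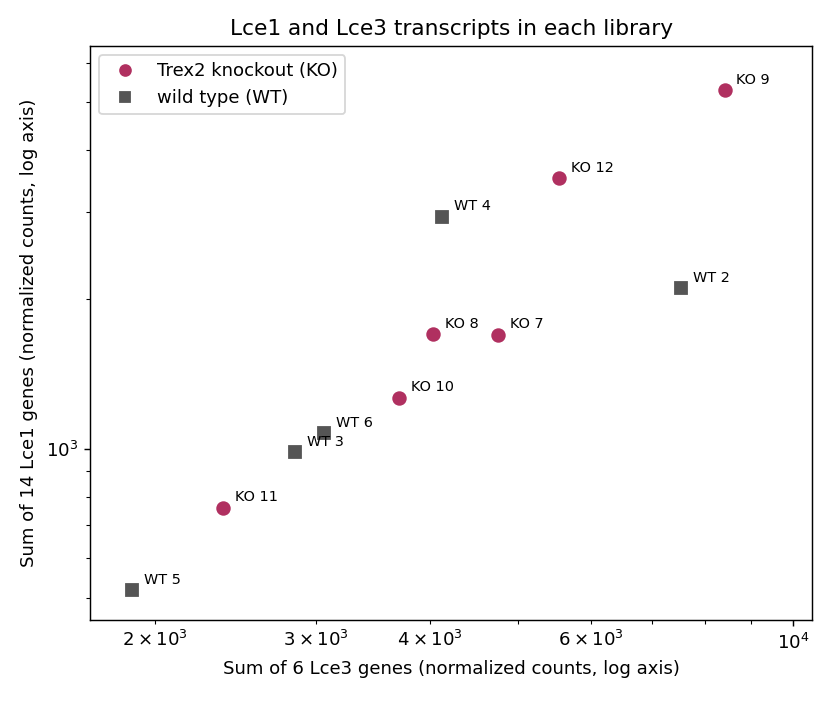
Sum of the 14 Lce1 genes against the sum of the 6 Lce3 genes in each library, both in normalized counts on log axes, with knockout as circles and wild type as squares. Knockout replicates 9 and 12 and wild-type replicate 4 lie high for their Lce3 sum, wild-type replicate 2 lies low for it, and the 2 genotypes overlap along both axes.

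The spread between libraries of 1 genotype differed by group in both genotypes. The median SD of log2(normalized count + 1) was 1.08 in knockout and 1.36 in wild type over the Lce1 genes. For the Lce3 genes it was 0.724 in knockout and 0.792 in wild type, and for the other envelope genes 0.652 in knockout and 0.616 in wild type. Over all tested genes it was 0.306 in knockout and 0.318 in wild type. Lce1c had the highest SD of the members in both genotypes (1.59 in knockout, 2.49 in wild type) and Crct1 the lowest (0.305 in knockout, 0.414 in wild type). These differences in spread were not tested, and part of the spread of the lowest genes is counting error.

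**Figure D5:**
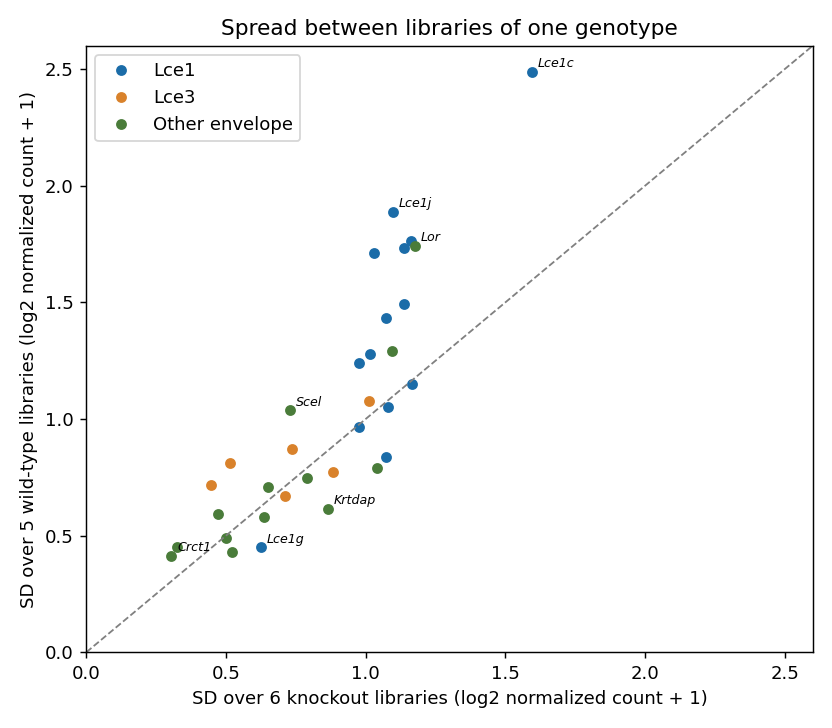
SD of log2(normalized count + 1) over the 5 wild-type libraries against that over the 6 knockout libraries for each envelope gene, with a dashed line of equality. Lce1 genes lie toward the upper right, up to Lce1c, and Crct1 lies nearest the lower left corner.

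Levels were compared between genes per kilobase of exon. In both genotypes Krtdap, Cnfn, Dmkn and Calm4 were the 4 highest members and Lce1j and Lce6a the 2 lowest. Krtdap had 9641 ± 5945 in knockout and 5203 ± 2080.0 in wild type normalized counts per kilobase (SD, n = 6 and 5), and Cnfn had 8349 ± 2883 in knockout and 8039 ± 3985 in wild type. The SDs of this pair overlapped, and the order of the 2 genes within libraries was not tested. Lce3d, the highest Lce gene, had 2555 ± 786 in knockout and 2242 ± 1325 in wild type. Its SDs overlapped those of Lce3c, and the order of Lce3d and Lce3c within libraries was not tested. Lce1f, at 475 ± 344 in knockout and 240.0 ± 218 in wild type, was the highest Lce1 gene in knockout. Lor, at 258 ± 200.2 in knockout and 68.5 ± 96.2 in wild type, held place 23 of 33 in knockout and 28 in wild type, and Ivl, at 376 ± 163 in knockout and 125 ± 53.1 in wild type, place 15 in knockout and 23 in wild type.

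Other genes that build, cross-link or regulate the envelope and the lipid barrier were examined as a list of 54, chosen with earlier results of these data known. Of the 48 that were tested 44 had a positive log2 fold change, with a median of 0.90, and 26 were higher and 0 lower at an unadjusted p under 0.05. Over all tested genes 51% were positive, 12.9% higher and 11.5% lower. The count of 26 was 32 without wild-type replicate 4 (16.2% of all genes) and 31 without knockout replicate 11 (13.4%), with 1 lower in each. It was 17 without wild-type replicate 3 (9.68% of all genes) and 13 without knockout replicates 9 and 12 (6.52%). It was also 13 without knockout replicate 9 and wild-type replicate 5 (9.94%). It was 8 with hair follicle markers as a covariate (3.94%), 4 with log10 depth (1.78%) and 2 with basal keratinocyte markers (2.1%). Tchh is in both this list and the hair follicle markers, so that covariate adjusts it partly for itself. With all 11 libraries none passed in limma over all genes, and without wild-type replicate 4 limma called 15 higher (3.5% of all genes). DESeq2 called 8 genes of the list higher (2.21% of all tested genes) and 0 lower (2.15%). The scaffold proteins envoplakin and periplakin stood beside involucrin, with log2 fold changes of 1.18 (SE 0.32) for Evpl and 1.11 (SE 0.28) for Ppl. Zfp750, a transcription factor of terminal differentiation, had 675 ± 281 normalized counts in knockout skin and 283 ± 135 in wild-type skin (SD, n = 6 and 5), and a log2 fold change of 1.29 (SE 0.31). The lipid genes Abca12, Pnpla1 and Cers3, which load lamellar granules, make acylceramides and synthesize ceramides, had log2 fold changes of 1.70 (SE 0.39), 0.96 (SE 0.24) and 0.81 (SE 0.21). These 6 genes, those of smallest p, had a limma adjusted p of 0.108 each. Klf4, a factor of late differentiation named after its values were seen, was the only gene of the list whose 6 knockout values all exceeded the 5 wild-type values, with a log2 fold change of 0.76 (SE 0.22), where 1.02% of all tested genes had no such overlap. Negative log2 fold changes were those of Sprr3, Sprr2k, Sprr2f and Sprr2j-ps of the small proline rich family. They ran from −2.09 (SE 1.07) in Sprr3 to −0.062 (SE 0.28) in Sprr2j-ps. Sequence shared among the Sprr2 paralogues was not measured here, so their values, positive or negative, are uncertain. Sprr2a1, Sprr2a2, Tchhl1, Prr9, Lelp1 and Krt2 were below the level required for testing.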

How the data were processed

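mRNA of whole treated back skin was sequenced for 6 Trex2 knockout and 5 wild-type mice. The table that the authors deposited holds a normalized signal per gene, in which each count was divided by a size factor of its library. TopHat2 2.0.8, featureCounts 1.4.6, DESeq2 1.8.1 and GRCm38 are named per the submitters' processing notes. The sources used here give neither their order and settings nor the annotation, the strand, or the treatment of reads that fit several genes. Columns were tied to samples by the number in the sample title.

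Dividing each value by that of 1 read gave whole reads (100% within 0.01 of a read). The most alike pair of libraries still differed by more than sampling noise, with a chi-square of 4.74 per degree of freedom. Whether mice shared a cage or a processing day is not given, so p-values measure the spread between these samples. Genes with a mean of at least 10 (13215) were tested in limma 3.58.1 (R 4.3.3, variance trend) on log2(normalized count + 1), with Benjamini-Hochberg adjustment over all of them. Fold changes set knockout over wild type. The pseudocount pulls those of low genes toward 0. Fold changes from limma are, however, differences of mean logs and can exceed the ratio of means that the count models fit. This was so for Lor, Lce1c, Lce1j and Lce1k. Single genes were also compared by exact two-sided permutation of the libraries (smallest possible p = 0.00216). Recovered reads went into edgeR 4.0.16 and DESeq2 1.42.0. The scripts were tested on simulated counts. Of 163 list symbols 2 were found under another name. The members, lists and tests were chosen with earlier results of these data known. Described in full were Lor, Ivl and, per group, the 3 most abundant members and up to 4 of smallest p, and of the other envelope list the 6 of smallest p. Protein sequences, planned for description, were not used here. Alternatives were other pseudocounts, filters, scalings, variance models, covariates, tools and sets of libraries.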

Additional observations from a re-analysis of the deposited data

Results flagged for a closer look

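For 10 of 82 sets of values (a gene or sum in 1 genotype) the highest library stood apart by Dixon's test, in which the gap to the next library, divided by the whole range, exceeded 0.71 for 5 libraries or 0.625 for 6. All 10 were in wild-type skin, and chance alone gives about 1 in 20 for normally distributed values. The values were taken without a log transform, unlike in the other tests, and the log scale was not examined. The sets also share libraries and are not independent, so the 10 cannot be read against that rate. Wild-type replicate 4 was the high library for Lce1c (280.2 against 65.3 normalized counts, gap over range 0.772), Lce1m (141 against 50.8 normalized counts, gap over range 0.729), Lce6a (66.7 against 20 normalized counts, gap over range 0.774), Lor (425 against 81.7 normalized counts, gap over range 0.84) and Scel (284 against 63.2 normalized counts, gap over range 0.936). It was also the high library for the Lce1 share of the Lce1 and Lce3 sums (41.6% against 25.9%, gap over range 0.78). Wild-type replicate 2 was the high library for Lce3c (2648 against 1147 normalized counts, gap over range 0.718), Lce3d (2234 against 1002 normalized counts, gap over range 0.75), Crct1 (2325 against 1417 normalized counts, gap over range 0.741) and Cnfn (10818 against 5144 normalized counts, gap over range 0.822).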

How the results depend on the processing

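The 29 alternatives, 2 of them added after the data were seen, left the number of members called lower at 0. The number called higher was 0 in all except DESeq2 (2) and the fit without wild-type replicate 4 (3, Lor, Ivl and Scel). The number of all genes called was 2, and it was 6 with array weights, 4 with edgeR, 576 with DESeq2 and 2 to 740 when each library was left out in turn, with 740 without wild-type replicate 4. Over those 11 fits the median log2 fold change was 0.42 to 1.24 for Lce1 (lowest without wild-type replicate 5), 0.19 to 0.67 for Lce3 (lowest without wild-type replicate 5) and 0.52 to 1.02 for the other envelope genes (lowest without knockout replicate 9). With hair follicle markers as a covariate the medians were −0.19, −0.11 and 0.14 in that order of groups, and with basal keratinocyte markers −0.54, −0.33 and 0.0301. Both covariates are higher in knockout skin and can take up part of the genotype difference. Without knockout replicate 9 and wild-type replicate 5 (chosen after values were seen) the Lce3 median turned to −0.00205, and the other 2 were 0.11 and 0.42.

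Log2 fold changes of single members that turned sign were, with hair follicle markers as a covariate, Lce1a1 −0.23, Lce1a2 −0.11, Lce1b −0.15, Lce1d −0.23, Lce1e −0.15, Lce1h −0.28, Lce1i −0.50, Lce1k −0.050, Lce1l −0.77, Lce1m −0.42, Lce3a −0.22, Lce3b −0.21, Lce3c −0.17, Lce3d −0.063, Lce3f −0.053, Lce6a −0.40, Kprp −0.093 and Cnfn −0.20. With basal keratinocyte markers they were Lce1a1 −0.50, Lce1a2 −0.54, Lce1b −0.69, Lce1c −0.33, Lce1d −0.53, Lce1e −0.55, Lce1f −0.47, Lce1h −0.70, Lce1i −0.86, Lce1k −0.42, Lce1l −0.87, Lce1m −0.71, Lce3a −0.42, Lce3b −0.36, Lce3c −0.37, Lce3d −0.23, Lce3e −0.28, Lce3f −0.31, Lce6a −0.66, Kprp −0.22, Cnfn −0.25, Krtdap −0.024 and Calm4 −0.12. Without knockout replicates 9 and 12 they were Lce1i −0.19, Lce1l −0.44, Lce1m −0.11, Lce3b −0.0085, Lce3c −0.0051 and Cnfn −0.085, and without knockout replicate 9 and wild-type replicate 5 Lce1e −0.072, Lce1i −0.45, Lce1l −0.20, Lce1m −0.065, Lce3b −0.096, Lce3c −0.15, Lce3d −0.025 and Cnfn −0.15. Over the fits that left out 1 or 2 libraries the highest values of these 8 members were Lce1e 0.99, Lce1i 0.65, Lce1l 0.40, Lce1m 0.92, Lce3b 0.56, Lce3c 0.56, Lce3d 0.59 and Cnfn 0.35. Leaving out 1 library turned Lce1l (to −0.045 without wild-type replicate 3, −0.0113 without wild-type replicate 6 and −0.15 without knockout replicate 9), Lce1i (−0.13 without wild-type replicate 5) and Cnfn (−0.014 without wild-type replicate 6 and −0.053 without knockout replicate 9). Lce1l was also negative with array weights (−0.11) and with log10 depth as a covariate (−0.21), and Lce1g was positive in libraries of 3000000 to 8000000 reads (0.0925). The causes were not tested. Pseudocounts, filters, scalings, robust variances and thinned reads turned no sign. Ivl, Lor, Scel, Calml3, Sbsn, Dmkn, Crct1 and Cdsn kept a positive sign under all 29. Lce1j did so in each setting where it was tested. With basal keratinocyte markers as a covariate their log2 fold changes were Ivl 0.73, Lor 0.53, Scel 0.37, Calml3 0.38, Sbsn 0.11, Dmkn 0.030, Crct1 0.18, Cdsn 0.0027 and Lce1j 0.13. Depth limits Lce1c, Lce1j, Lce1k and Lce6a in wild-type replicate 3, the shallowest library, which held 0 to 3 reads of each. Lce1c had 2 reads in wild-type replicate 5, but that library was the deepest of the wild-type libraries (5853454 reads). No paired analysis was possible because the genotypes share no replicate numbers.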
